A study of Homo sapiens with 15 samples.

Results

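The genes described here are 10 regulators of the integrated stress response, namely ATF4, ATF3, ATF5, DDIT3, TRIB3, PPP1R15A, CEBPB, CHAC1, SESN2 and DDIT4. They were chosen by name as the ATF4, ATF3 and CHOP axis with its feedback genes, and all 10 were found by Ensembl identifier among the 60557 genes that every library lists. Polyadenylated RNA was sequenced from Caco-2, a tumour-derived human colon line whose confluent monolayers resemble small-intestinal enterocytes. Monolayers were exposed for 24 h to dishwasher rinse aid diluted 1:10000 (5 libraries), were exposed to it at 1:40000 (5 libraries), or were left unexposed (5 libraries). The first of these solutions held 4 times as much rinse aid as the second. All 15 libraries come from this single cancer line. The labels leave unsaid whether the libraries of a group are separate cultures. A p-value here therefore reflects the spread among the libraries sequenced, and that spread may be technical.

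The integrated stress response begins with kinases that sense unfolded proteins in the endoplasmic reticulum, amino acid shortage, viral RNA, or heme lack and mitochondrial stress. Each phosphorylates the translation initiation factor eIF2, which slows most protein synthesis while the mRNA of ATF4 is translated more. ATF4 protein, usually paired with a C/EBP factor, switches on genes of amino acid supply and further transcription factors, among them CHOP, the product of DDIT3, and ATF3. The response also limits itself, since PPP1R15A brings a phosphatase back to eIF2 and TRIB3 binds and restrains ATF4 and CHOP. In intestinal epithelium the response is known from endoplasmic reticulum stress and amino acid starvation. The libraries measure mRNA and hold no reading of eIF2 phosphorylation or of ATF4 protein.

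Total counts per library ran from 5489425 to 9555632 at 1:10000, from 2551839 to 172092447 at 1:40000 and from 4333226 to 14230853 in unexposed cells. At 1:40000, replicate 1 was the deepest and replicate 2 the shallowest library of the study. The smallest raw count of any of the 10 genes in any library was 27, for ATF3 in an unexposed library. Per the file headers, all rinse aid files came from the aligner HISAT2 and all unexposed files from RNA STAR, so aligner and exposure cannot be told apart in the comparisons with unexposed cells. The comparison of 1:10000 with 1:40000 shares the aligner. Mitochondrial ribosomal RNA took 3.11 to 3.83% of counts at 1:10000, 0.626 to 1.24% at 1:40000 and 0.216 to 0.349% in unexposed cells, and its part in the results was not tested. Among 12 enterocyte and epithelial markers the summed level, in CPM (normalised counts after scaling each library to one common total), was 12180 to 14230 at 1:10000, 10050 to 11470 at 1:40000 and 10260 to 12120 in unexposed cells. KRT20, at 0 in both rinse aid groups and at most 0.20 CPM in any unexposed library, was too low to test and added almost nothing to that sum. That sum is carried by the keratins KRT8 and KRT18, which were called (adjusted p under 0.05) higher at 1:10000 than in unexposed cells (log2 fold changes 0.42 ± 0.08 and 0.74 ± 0.08, edgeR adjusted p = 5.16e-05 and 2.56e-08), while 7 of the 11 tested markers were called lower there (median of the 11, -0.51). The lower ones include the enterocyte genes SI (-2.30 ± 0.41, adjusted p = 0.000158) and FABP1 (-2.26 ± 0.13, adjusted p = 3.34e-12) and the intestinal transcription factor genes CDX2 (-1.45 ± 0.08, adjusted p = 1.95e-14) and HNF4A (-1.40 ± 0.07, adjusted p = 3.48e-15). At 1:40000, 0 of the 11 were called higher and 3 lower than in unexposed cells (median -0.04), namely SI, HNF4A and VIL1. USP37, on the opposite strand, covers 44.0% of the exonic bases of VIL1, so the VIL1 counts are uncertain. Between the dilutions 2 of the 11 were higher and 6 lower at 1:10000 (median -0.31). The part of these marker differences in the results was not tested. Among 11 leukocyte, fibroblast and endothelial markers the summed level was 36.4 to 51.7, 79.3 to 127 and 101 to 121 CPM in the same group order, and PTPRC, the pan-leukocyte marker, was at 0 in all 15 libraries. COL1A1 carried most of that sum, with means of 35.3, 81.2 and 92.2 CPM in the same group order, while COL1A2 was at 0 in 12 libraries. At 1:10000, 3 of the 4 tested markers were called lower than in unexposed cells and 0 higher.

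Upstream sequences of 5 of the genes are shown because they stand at different ends of the dose pattern or hold a searched motif. RefSeq's promoter table (GRCh38.p14) matched all 10 genes, with 18 start sites. The 250 bases before each start were searched on both strands for TGATGNAA, the core of the C/EBP-ATF element to which ATF4 binds with C/EBP partners, where N is any base. The same search covered TGACGTCA, the cyclic AMP response element, TGANTCA, the AP-1 site, and CCAAT, the CCAAT box. PPP1R15A (chr19:48872171-48872391, plus strand) and ATF3 (chr1:212565157-212565333, plus strand) are the pair that differed most between the dilutions, with TGACGTCA and TGATGGAA in capitals. SESN2 (chr1:28259268-28259517, plus strand) was level between the dilutions within the interval given with its values, and its capitals mark CCAAT boxes on the minus strand. CHAC1 (chr15:40953251-40953280, plus strand) shows the C/EBP-ATF core on the minus strand, in bases annotated as exon by GENCODE 29. DDIT3 (chr12:57520735-57520764, minus strand) shows the AP-1 site before its first start.
PPP1R15A: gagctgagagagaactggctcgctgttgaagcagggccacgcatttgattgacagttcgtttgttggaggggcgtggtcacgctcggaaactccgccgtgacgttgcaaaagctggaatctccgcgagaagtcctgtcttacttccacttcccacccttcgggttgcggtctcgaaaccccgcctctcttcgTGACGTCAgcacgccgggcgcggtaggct
ATF3: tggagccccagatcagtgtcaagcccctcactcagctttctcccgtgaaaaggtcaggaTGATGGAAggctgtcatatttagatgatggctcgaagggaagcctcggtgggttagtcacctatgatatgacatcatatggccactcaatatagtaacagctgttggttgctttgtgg
SESN2: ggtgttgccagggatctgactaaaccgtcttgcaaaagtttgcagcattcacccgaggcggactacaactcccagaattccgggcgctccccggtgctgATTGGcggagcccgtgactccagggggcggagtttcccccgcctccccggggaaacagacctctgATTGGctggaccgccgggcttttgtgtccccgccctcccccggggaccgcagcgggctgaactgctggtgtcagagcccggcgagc
CHAC1: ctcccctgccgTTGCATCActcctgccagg
DDIT3: gcgcgcgcaTGACTCAcccacctcctccgt

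Matches were few, and a match here describes letters only. TGATGNAA stood in 2 of the 18 windows of the 10 genes, before ATF3 and CHAC1, and in 3.14% of the 35116 windows of all genes. TGACGTCA stood in 1 of the 18 windows, that of PPP1R15A, starting 58 bases before its start site, and in 1.65% of all windows. TGANTCA stood in 3 of the 18 windows and in 6.57% of all windows. It was found for ATF5, in bases annotated as exon, and for DDIT3, whose overlapping windows share the site. CCAAT stood in 7 of the 18 windows and in 32.0% of all windows. Those 7 belong to 6 of the 10 genes (ATF3, DDIT3, CEBPB, CHAC1, SESN2 and DDIT4). The CCAAT matches of ATF3 and CHAC1 lie in bases annotated as exon. The windows of ATF4 and of TRIB3 held no match to any of these motifs. Both ATF4 windows lie wholly in bases annotated as exon, as do 174 of the 250 bases of each TRIB3 window. The search therefore covered little sequence outside exons for these genes.

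The comparisons with unexposed cells ask which transcripts of the response differ after 24 h of rinse aid. Apart from ATF5, which was not called in any comparison, every regulator was higher at both dilutions. At 1:10000, 9 of the 10 genes were called higher than in unexposed cells and 0 lower (edgeR quasi-likelihood test, adjusted p under 0.05), where 71.0% of the 13157 genes tested were called, 34.8% higher and 36.2% lower. At 1:40000, 9 of 10 were again called higher and 0 lower, where 52.1% of all genes were called, 26.1% higher and 26.0% lower. Every exposed library lay above every unexposed library for 9 of the 10 genes at 1:10000 and 9 of 10 at 1:40000, where 28.8% and 18.1% of all genes did so. Called differences of at least 2-fold numbered 8 at 1:10000 and 7 at 1:40000, where 11.7% and 6.67% of all genes were called higher by that much. The median log2 fold change of the 10 genes was 2.49 at 1:10000 and 1.63 at 1:40000, beside -0.02 and -0.002 over all genes tested. These comparisons share the unexposed libraries. All 10 genes passed the filter on low counts, and the lowest mean among them in unexposed cells was 4.76 CPM, for CHAC1.

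Between the dilutions the regulators parted. At 1:10000 over 1:40000, 6 of 10 were called higher and 0 lower, where 57.3% of all genes were called, 28.3% higher and 29.0% lower. The groups did not overlap for 4 of the 10, where 40.3% of all genes did not overlap and 20.5% lay wholly higher at 1:10000. At least 2-fold differences were called for 2 of the 10, ATF3 and PPP1R15A, against 3.38% of all genes. The median log2 fold change was 0.35 for the 10 genes and -0.007 over all genes. ATF3 and PPP1R15A ranked 44 and 46 among the log2 fold changes of all 13157 genes in this comparison.

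**Figure D1:**
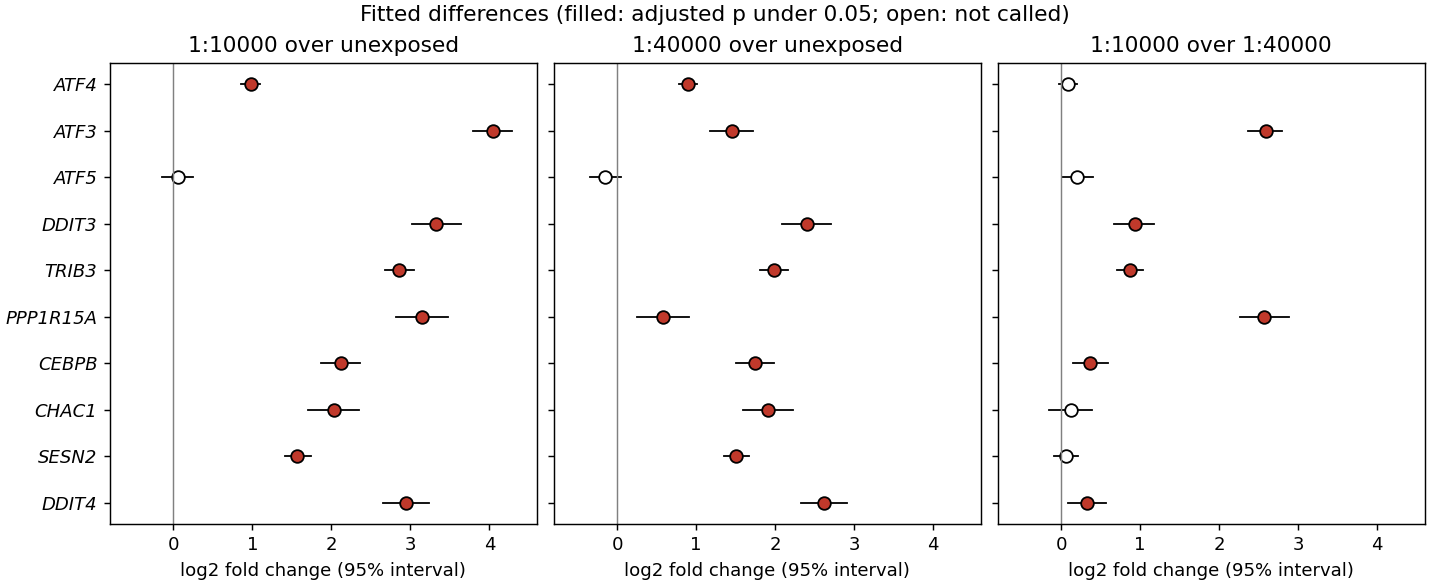
Log2 fold change of each regulator in the 3 comparisons (horizontal axis, log2 units, with 95% interval), from the fit over all 15 libraries, with filled points called at an adjusted p under 0.05 and open points not called. ATF3 and PPP1R15A stand apart at 2.59 and 2.57 between the dilutions, while ATF4, CHAC1 and SESN2 lie near 0 there and above 0 in both other panels.

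ATF4 is the central transcription factor of the response. Levels are CPM scaled by trimmed mean of M-values (TMM), given for replicates 1 to 5 in that order. ATF4 (ENSG00000128272, chr22:39519695-39522685, plus strand) had 473, 468, 413, 419 and 422 CPM at 1:10000, and 429, 422, 394, 412 and 410.2 CPM at 1:40000. Unexposed cells had 208, 232, 240.3, 214 and 219 CPM. All 10 exposed libraries lay above all 5 unexposed ones, and the exposed groups overlapped each other. The log2 fold change over unexposed cells was 0.98 ± 0.06 at 1:10000 (± SE, adjusted p = 1.03e-13) and 0.89 ± 0.06 at 1:40000 (adjusted p = 1.33e-12). Between the dilutions the difference was 0.09, with a 95% interval from -0.03 to 0.20 (adjusted p = 0.189). In bulk RNA, a change in the share of cells expressing a gene and a change in its RNA per cell cannot be told apart. The identifier's version differs between the file sets. Counts assigned to the 4 named ATF4 pseudogenes were at most 0.257% of the ATF4 count at 1:10000, 0.412% at 1:40000 and 0.0955% in unexposed cells.

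ATF3, a stress-induced transcription factor of the ATF/CREB family, showed the largest fold change of the 10 at 1:10000. ATF3 (ENSG00000162772, chr1:212565334-212620777, plus strand) had 126, 113, 90.0, 98.7 and 94.8 CPM at 1:10000, and 19.8, 19.1, 15.4, 17.0 and 15.9 CPM at 1:40000. The unexposed libraries held 5.79, 5.87, 5.99, 5.91 and 8.27 CPM. No group overlapped another, and the unexposed replicate 5 stood above its group. The fold change was 16.4 at 1:10000 (log2 4.04 ± 0.12, adjusted p = 3.27e-19) and 2.73 at 1:40000 (log2 1.45 ± 0.13, adjusted p = 9.19e-10). At 1:10000 the level was 6.01 times that at 1:40000 (log2 2.59 ± 0.10, adjusted p = 5.34e-15).

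DDIT3 encodes CHOP, a C/EBP-family factor linked to cell death under prolonged stress. DDIT3 (ENSG00000175197, chr12:57516588-57521737, minus strand) had 101, 96.3, 83.9, 78.7 and 84.1 CPM at 1:10000, and 63.2, 51.6, 40.1, 39.9 and 37.7 CPM at 1:40000. Unexposed monolayers had 8.39, 10.5, 9.10, 8.09 and 8.14 CPM. The 3 groups formed separate steps without overlap. The fold change was 10.04 at 1:10000 (log2 3.33 ± 0.15, adjusted p = 8.53e-14) and 5.28 at 1:40000 (log2 2.40 ± 0.15, adjusted p = 4.22e-11), and 1:10000 stood 1.90-fold above 1:40000 (log2 0.93 ± 0.12, adjusted p = 2.24e-06). The methionyl-tRNA synthetase gene MARS1, on the opposite strand, overlaps 27.2% of the exonic bases of DDIT3, and the strand setting of the counting is not given in the sources used here. MARS1 averaged 437 ± 33.2 CPM at 1:10000 and 366 ± 24.3 CPM at 1:40000, against 176 ± 19.5 CPM in unexposed cells (SD, n = 5 each), and its part in the DDIT3 count was not tested.

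CEBPB, a basic leucine zipper factor that can pair with ATF4, was higher at both dilutions with a small step between them. CEBPB (ENSG00000172216, chr20:50190734-50192689, plus strand) had 155, 172, 162, 144 and 137 CPM at 1:10000, and 98.9, 133, 124, 99.8 and 145 CPM at 1:40000. Without exposure the level was 29.96, 33.1, 44.6, 32.4 and 38.9 CPM. Exposed and unexposed libraries did not overlap, whereas the exposed groups did. The log2 fold change was 2.12 ± 0.12 at 1:10000 (adjusted p = 2.88e-12) and 1.75 ± 0.12 at 1:40000 (adjusted p = 1.45e-10). Between the dilutions it was 0.37 ± 0.11 (adjusted p = 0.00595), and 0.27 (adjusted p = 0.113, not called) without the first 2 libraries of both rinse aid groups. The antisense gene CEBPB-AS1 overlaps 11.8% of its exonic bases and averaged 1.48 ± 0.65 CPM at 1:10000, 1.65 ± 0.62 CPM at 1:40000 and 1.52 ± 0.35 CPM in unexposed cells.

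ATF5, a relative of ATF4 whose mRNA is likewise translated more under eIF2 phosphorylation, was the exception. ATF5 (ENSG00000169136, chr19:49928702-49933935, plus strand) had 46.7, 46.4, 48.7, 45.2 and 44.4 CPM at 1:10000, and 34.6, 35.9, 38.7, 47.2 and 45.1 CPM at 1:40000. The 5 unexposed libraries had 34.8, 42.7, 49.3, 47.6 and 47.7 CPM. All groups overlapped. The log2 fold change was 0.06 at 1:10000 (95% interval -0.14 to 0.25, adjusted p = 0.616) and -0.15 at 1:40000 (-0.34 to 0.05, adjusted p = 0.202), intervals that lie within a 2-fold difference in either direction. The difference between the dilutions was 0.20 (0.01 to 0.40, adjusted p = 0.0731). That last value passed without replicate 4 (0.26, adjusted p = 0.0249) or without replicate 5 (0.24, adjusted p = 0.0408) of the 1:40000 group, and with only the first 2 libraries of both rinse aid groups (0.42, adjusted p = 0.019), but not without those libraries (0.10, adjusted p = 0.433). NUP62, a nuclear pore gene on the opposite strand, overlaps 21.2% of the exonic bases of ATF5 and averaged 60.3 ± 2.24 CPM at 1:10000 and 90.1 ± 4.22 CPM at 1:40000, against 96.8 ± 4.27 CPM in unexposed cells. Its part in the ATF5 count was not tested, and the identifier's version differs between the file sets.

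**Figure D2:**
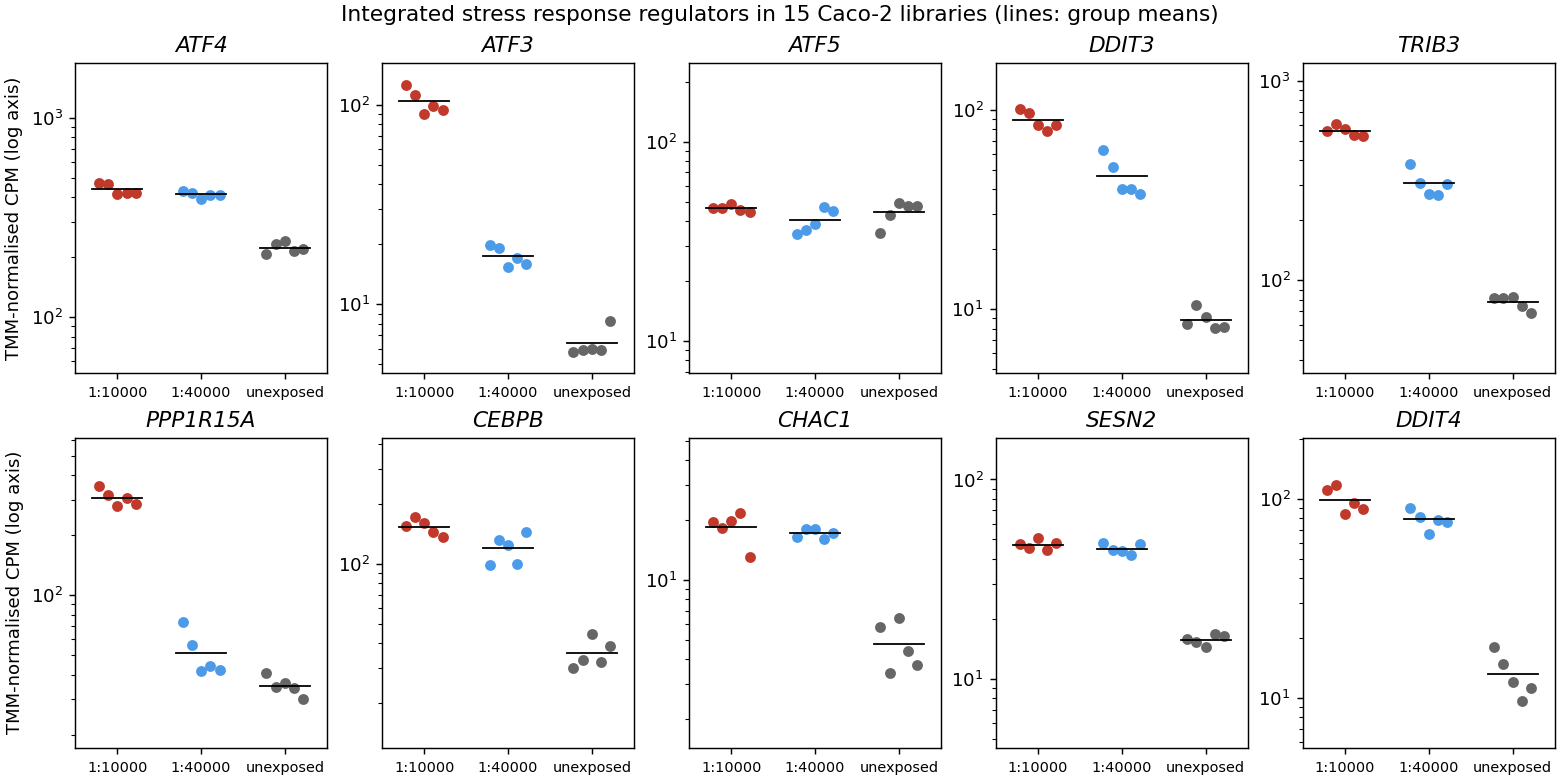
TMM-normalised CPM (vertical log axis, each panel spanning the same ratio) of the 10 regulators in each of 15 libraries, with points for replicates 1 to 5 from left to right and lines for group means at 1:10000, at 1:40000 and in unexposed cells. ATF3 and PPP1R15A drop steeply between 1:10000 and 1:40000, DDIT3 and TRIB3 form steps, ATF4, CHAC1 and SESN2 are level across the dilutions, and ATF5 overlaps in all 3 groups.

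The feedback genes PPP1R15A and TRIB3 were both higher at 1:10000 and at 1:40000 than in unexposed cells. PPP1R15A encodes GADD34, the stress-inducible partner that directs protein phosphatase 1 to eIF2. PPP1R15A (ENSG00000087074, chr19:48872392-48876057, plus strand) had 351, 318, 279.8, 309 and 286 CPM at 1:10000, and 73.3, 56.1, 41.5, 44.0 and 42.0 CPM at 1:40000. Unexposed Caco-2 cells held 40.5, 34.5, 36.2, 34.1 and 30.1 CPM. No group overlapped another, although the lowest library at 1:40000, at 41.5 CPM, stood just above the highest unexposed one. The fold change was 8.87 at 1:10000 (log2 3.15 ± 0.16, adjusted p = 3.38e-11) and 1.49 at 1:40000 (log2 0.58 ± 0.16, adjusted p = 0.00555). At 1:10000 it was 5.95 times the level at 1:40000 (log2 2.57 ± 0.15, adjusted p = 7.83e-10). The log2 fold change at 1:40000 depended on which libraries entered, being 0.35 without replicate 1 of that group, 0.29 without its deepest and shallowest libraries (replicates 1 and 2), and 0.96 with only the first 2 libraries of each rinse aid group. It stayed called in each of these fits.

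TRIB3 encodes a pseudokinase that dampens ATF4 and CHOP activity. TRIB3 (ENSG00000101255, chr20:362835-397559, plus strand) had 560.2, 612, 573, 535 and 530.5 CPM at 1:10000, and 384, 308, 271, 267 and 303 CPM at 1:40000. For unexposed cells the values were 81.3, 81.8, 82.3, 74.4 and 68.7 CPM. The 3 groups did not overlap. The fold change was 7.25 at 1:10000 (log2 2.86 ± 0.09, adjusted p = 1.89e-18) and 3.97 at 1:40000 (log2 1.99 ± 0.09, adjusted p = 1.3e-15), with 1:10000 standing 1.83-fold above 1:40000 (log2 0.87 ± 0.08, adjusted p = 3.05e-09).

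The 3 effector genes CHAC1, SESN2 and DDIT4 were all higher at both dilutions, and little of that separated the dilutions. CHAC1 encodes a cytosolic enzyme that cleaves glutathione. CHAC1 (ENSG00000128965, chr15:40952962-40956519, plus strand) had 19.4, 18.3, 19.8, 21.7 and 13.0 CPM at 1:10000, and 16.4, 18.0, 18.1, 16.0 and 17.1 CPM at 1:40000. Unexposed replicates had 5.79, 3.43, 6.43, 4.42 and 3.75 CPM. Exposed and unexposed libraries did not overlap, and the 1:40000 libraries all lay inside the range of those at 1:10000. The log2 fold change was 2.03 ± 0.16 at 1:10000 (adjusted p = 2.25e-11) and 1.91 ± 0.15 at 1:40000 (adjusted p = 1.26e-10). The difference between the dilutions was 0.12 (95% interval -0.15 to 0.39, adjusted p = 0.455).

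SESN2 encodes a sestrin, a leucine-binding protein that holds back the growth kinase complex mTORC1. SESN2 (ENSG00000130766, chr1:28259527-28282491, plus strand) had 47.5, 45.4, 50.6, 44.1 and 48.3 CPM at 1:10000, and 48.1, 44.3, 43.6, 41.6 and 47.5 CPM at 1:40000. Among unexposed libraries it was at 15.8, 15.4, 14.4, 16.7 and 16.4 CPM. The exposed groups interleaved, well above the unexposed libraries. The log2 fold change was 1.57 ± 0.08 at 1:10000 (adjusted p = 7.67e-15) and 1.51 ± 0.08 at 1:40000 (adjusted p = 2.04e-14). Between the dilutions it was 0.06 (95% interval -0.09 to 0.21, adjusted p = 0.917).

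DDIT4 encodes REDD1, another brake on mTORC1. DDIT4 (ENSG00000168209, chr10:72273920-72276036, plus strand) had 110.2, 117, 84.1, 94.9 and 88.5 CPM at 1:10000, and 90.1, 81.4, 66.9, 78.4 and 76.8 CPM at 1:40000. Unexposed cells had 18.0, 14.9, 11.98, 9.72 and 11.2 CPM. Exposed and unexposed libraries did not overlap, while the exposed groups did. The fold change was 7.71 at 1:10000 (log2 2.95 ± 0.14, adjusted p = 1.84e-13) and 6.14 at 1:40000 (log2 2.62 ± 0.14, adjusted p = 2.56e-12), the largest of the 10 at that dilution. Between the dilutions it was 0.33 ± 0.12 (adjusted p = 0.0202). That call was lost without replicate 1 (0.29, adjusted p = 0.053) or replicate 2 (0.28, adjusted p = 0.053) at 1:10000 and without replicate 3 at 1:40000 (0.27, adjusted p = 0.0587). DDIT4-AS1, on the opposite strand, overlaps 41.2% of the exonic bases of DDIT4. It is not among the genes that every library lists, so it was not analysed here. Its part in the DDIT4 count, and so in the DDIT4 fold changes over unexposed cells, was not tested.

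Per kilobase of exon, the order of the 10 genes changed with exposure. ATF4 was the most abundant in every group, at 175 ± 11.5 CPM per kb at 1:10000, 164 ± 5.35 at 1:40000 and 88.6 ± 5.24 in unexposed cells (SD, n = 5). TRIB3 ranked 2 in each group at 164 ± 9.62, 89.4 ± 13.7 and 22.6 ± 1.74 CPM per kb in the same group order. At 1:10000 the libraries of ATF4 and TRIB3 overlapped on this scale, and in the other groups they did not. PPP1R15A ranked 3 at 1:10000 (99.8 ± 9.23 CPM per kb), 6 at 1:40000 (16.6 ± 4.41) and 5 in unexposed cells (11.3 ± 1.22). ATF3 ranked 7 at 1:10000 (25.9 ± 3.68 CPM per kb) and the lowest of the 10 at 1:40000 (4.31 ± 0.48) and in unexposed cells (1.58 ± 0.26). Its lowest place in unexposed cells did not clear the spread, since its libraries there overlapped those of CHAC1. ATF5, whose level moved little, ranked 8 at 1:10000 (15.7 ± 0.56 CPM per kb), 7 at 1:40000 (13.6 ± 1.90) and 4 in unexposed cells (15.03 ± 2.01). Other neighbours that overlapped were CEBPB and DDIT3 at 1:10000. At 1:40000 DDIT4 overlapped DDIT3, and PPP1R15A, ATF5 and SESN2 overlapped one another. Among unexposed libraries the neighbours TRIB3, CEBPB, ATF5 and PPP1R15A overlapped in sequence, as did DDIT3, DDIT4 and SESN2.

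Within the rinse aid groups, replicates 1 and 2 stood apart from replicates 3 to 5 in several regulators. Both lay above the other 3 for ATF4, ATF3, DDIT3, PPP1R15A and DDIT4 at 1:10000, which is 5 of the 10 genes, where 20.1% of all genes tested did so. At 1:40000 both lay above for 6 of the 10, those 5 and TRIB3, where 20.5% of all genes did, and ATF5 was lower in both. PPP1R15A at 1:40000 spanned 56.1 to 73.3 CPM in replicates 1 and 2, against 41.5 to 44.0 CPM in the other 3, and DDIT3 spanned 51.6 to 63.2 CPM against 37.7 to 40.1 CPM. Replicates 1 and 2 at 1:40000 also held 1.24 and 1.19% mitochondrial ribosomal RNA, against 0.626 to 0.791% in the other 3 libraries. At 1:10000 they held 3.28 and 3.83%, against 3.11 to 3.29%, so replicate 1 lay within the range of the others there. The TMM factors of replicates 1 and 2 were 0.896 and 0.897 at 1:10000, against 0.944 to 0.954 in the other 3. At 1:40000 those factors were 1.011 and 1.028, against 1.032 to 1.042. The part of these differences in the results was not tested. Comparing dilutions within each set of libraries, the log2 fold change of PPP1R15A was 2.79 without and 2.31 with only the first 2 libraries, that of ATF3 was 2.57 and 2.61, that of DDIT3 was 1.08 and 0.74, and that of TRIB3 was 0.97 and 0.75. These 4 were called in both sets.

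**Figure D3:**
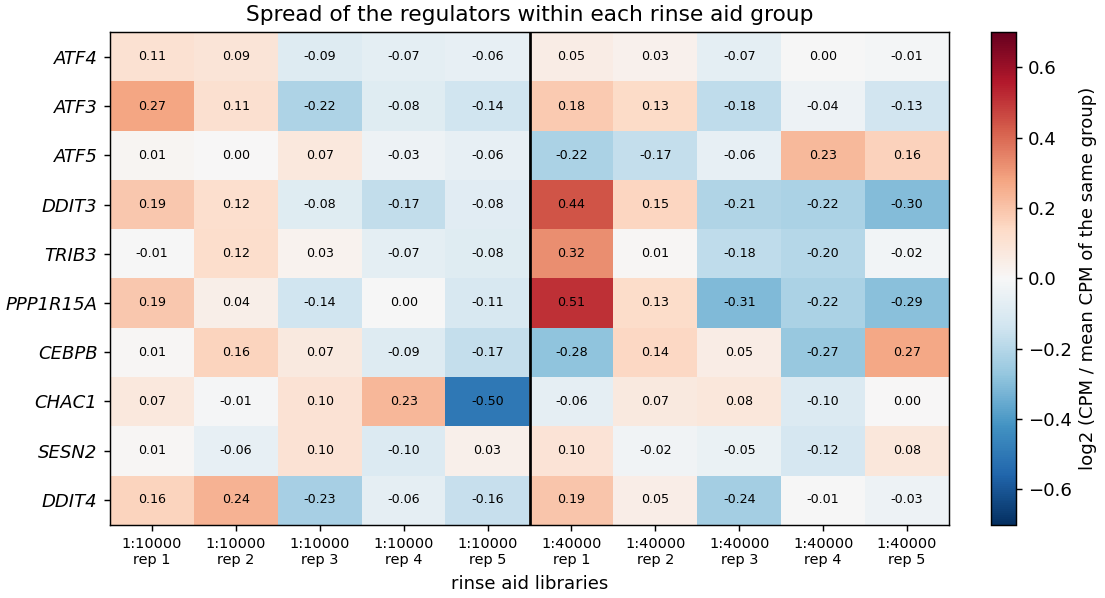
Deviation of each rinse aid library from the mean of its own group (colour and printed value, log2 of CPM over mean CPM) for the 10 regulators in rows and the 10 rinse aid libraries in columns. Replicate 1 at 1:40000 carries the largest positive values, 0.51 for PPP1R15A and 0.44 for DDIT3, and replicate 5 at 1:10000 is low for CHAC1, at -0.50.

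The kinases and eIF2 itself come before the regulators in the pathway. Means of these and the following genes are CPM ± SD over 5 libraries, and differences are log2 fold changes ± SE from the same fit. Of 18 listed genes of eIF2 control, 7 were called higher and 5 lower at 1:10000, and 4 higher and 4 lower at 1:40000, both against unexposed cells, with median log2 fold changes of 0.04 and -0.07. At 1:10000 over 1:40000, 7 were higher and 1 lower (median 0.13). Counts in this and the following lists stand beside the shares of all genes tested. Those were 34.8% higher and 36.2% lower at 1:10000, and 26.1% and 26.0% at 1:40000, against unexposed cells. Between the dilutions they were 28.3% and 29.0%. EIF2S2, the beta subunit of eIF2, averaged 698 ± 49.9 CPM at 1:10000 and 512 ± 27.8 CPM at 1:40000, against 265 ± 20.3 CPM in unexposed cells, log2 fold changes of 1.40 ± 0.06 (adjusted p = 6.83e-16) and 0.95 ± 0.06 (adjusted p = 2.62e-12). PPP1R15B, the constitutive counterpart of PPP1R15A, averaged 174 ± 31.3 CPM at 1:10000 and 107 ± 11.8 CPM at 1:40000, against 85.4 ± 7.03 CPM in unexposed cells. Its step between the dilutions was 0.70 ± 0.10 (adjusted p = 9.04e-06). EIF2S1, the alpha subunit that the kinases phosphorylate, averaged 149 ± 9.51 CPM at 1:10000 against 89.2 ± 6.64 CPM at 1:40000 (log2 0.74 ± 0.07, adjusted p = 4.24e-09).

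Among the kinase genes the differences were small. EIF2AK3, which encodes the endoplasmic reticulum sensor PERK, averaged 65.0 ± 4.64 CPM at 1:10000 and 57.0 ± 4.95 CPM at 1:40000, against 63.1 ± 6.25 CPM in unexposed cells. It was called between the dilutions (0.19 ± 0.08, adjusted p = 0.0362) and in neither comparison with unexposed cells (adjusted p = 0.59 and 0.12). EIF2AK1, which encodes the heme-regulated kinase, was lower at 1:10000 (-0.13 ± 0.05, adjusted p = 0.032), while EIF2AK2 and EIF2AK4, which encode PKR and GCN2, were called in no comparison. IMPACT, an inhibitor of GCN2 activation, was higher at 1:40000 than in unexposed cells, at 38.0 ± 2.48 against 24.3 ± 1.92 CPM (log2 0.63 ± 0.08, adjusted p = 4.59e-07). It was also higher at 1:10000 than in unexposed cells (0.56 ± 0.08, adjusted p = 1.44e-06). GCN1, which GCN2 needs for activation, was lower at 1:10000 than at 1:40000 (-0.27 ± 0.06, adjusted p = 0.00017). The 5 subunit genes of eIF2B, the exchange factor that phosphorylated eIF2 blocks, went in both directions. At 1:10000 against unexposed cells, EIF2B2 (0.56 ± 0.09, adjusted p = 2.86e-06) and EIF2B3 (0.32 ± 0.10, adjusted p = 0.00471) were higher. EIF2B4 was lower (-0.31 ± 0.09, adjusted p = 0.00354), as were EIF2B1 at -0.53 ± 0.10 (adjusted p = 2.11e-05) and EIF2B5 at -0.40 ± 0.08 (adjusted p = 5.95e-05). At 1:40000 against unexposed cells, EIF2B1 was at -0.61 ± 0.09 (adjusted p = 5.89e-06), EIF2B4 at -0.43 ± 0.09 (adjusted p = 0.000202) and EIF2B5 at -0.43 ± 0.08 (adjusted p = 3.56e-05), while EIF2B2 and EIF2B3 were not called (0.03 and -0.01).

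Effector genes commonly listed as ATF4 targets were higher almost throughout. Of 31 tested, 28 were called higher and 1 lower at 1:10000 (median log2 fold change 1.32), and 29 higher and 0 lower at 1:40000 (median 1.10), against unexposed cells in both cases. This list was written with earlier results of these data known, so its direction is a description. GDF15, a secreted stress hormone, averaged 242 ± 42.1 CPM at 1:10000 and 35.8 ± 6.41 CPM at 1:40000, against 18.5 ± 3.38 CPM in unexposed cells (log2 3.73 ± 0.16, adjusted p = 2.46e-12, and 0.99 ± 0.16, adjusted p = 8.68e-05). ALDH1L2, a mitochondrial folate enzyme, averaged 29.6 ± 4.98 CPM at 1:10000 and 41.1 ± 5.39 CPM at 1:40000, against 4.03 ± 0.89 CPM in unexposed cells (log2 2.85 ± 0.16, adjusted p = 4.86e-14, and 3.34 ± 0.15, adjusted p = 1.57e-15). PSPH, which makes serine, was the only effector called lower at 1:10000, at 90.5 ± 8.29 against 109 ± 2.27 CPM in unexposed cells (-0.26 ± 0.06, adjusted p = 0.00075). At 1:40000 it was called higher than in unexposed cells (0.20 ± 0.06, adjusted p = 0.0094). Smaller called differences were those of EPRS1, a tRNA synthetase gene, at 1:10000 (0.27 ± 0.05, adjusted p = 3.12e-05) and of NARS1, another, at 1:40000 (0.32 ± 0.06, adjusted p = 0.000102). ASNS, the asparagine synthetase gene, was listed at only 3.18 ± 0.74 CPM at 1:10000 and 1.99 ± 0.57 CPM at 1:40000, against 0.41 ± 0.08 CPM in unexposed cells. Another annotated gene on its strand covers 44.6% of its exonic bases, so its counts are uncertain.

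Between the dilutions the effectors split, with 12 of 31 called higher and 9 lower at 1:10000 (median -0.01), and 9 higher and 11 lower under upper-quartile scaling. Over all genes tested, 28.3% were called higher and 29.0% lower in this comparison. GDF15 stood 2.73 ± 0.15 higher on the log2 scale (adjusted p = 1.67e-10). SLC3A2, the heavy chain of amino acid transporters such as the cystine carrier, averaged 1300 ± 19.7 CPM at 1:10000 against 488 ± 18.6 CPM at 1:40000 (1.41 ± 0.08, adjusted p = 2.69e-13). The serine synthesis genes PSAT1 and PHGDH went the other way. PSAT1 averaged 97.4 ± 9.36 CPM at 1:10000 against 155 ± 11.7 CPM at 1:40000 (-0.67 ± 0.07, adjusted p = 1.4e-08), and PHGDH 294 ± 26.4 against 425 ± 45.9 CPM (-0.53 ± 0.07, adjusted p = 1.04e-06).

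Genes listed as linked to CHOP in cell death and oxidation were called higher more often than lower in each comparison. The list also holds the chaperone gene DNAJB9 and the anti-death genes BCL2 and MCL1, so a higher call has no single meaning for cell death. MCL1 was called higher at 1:10000 than in unexposed cells (0.60 ± 0.07, adjusted p = 3.24e-08) and than at 1:40000 (0.63 ± 0.07, adjusted p = 4.16e-08). At 1:40000 against unexposed cells it was not called (-0.02 ± 0.07, adjusted p = 0.794). Of 11, 8 were higher and 0 lower at 1:10000 (median log2 fold change 0.46), and 6 higher and 0 lower at 1:40000 (median 0.29). At 1:10000 over 1:40000, 7 were higher and 2 lower (median 0.45). PMAIP1, which encodes the death-promoting protein NOXA, averaged 9.53 ± 2.94 CPM at 1:10000 and 3.76 ± 0.98 CPM at 1:40000, against 0.94 ± 0.18 CPM in unexposed cells (log2 3.28 ± 0.26, adjusted p = 2.64e-11, and 1.89 ± 0.27, adjusted p = 2.32e-06). DNAJB9, a chaperone gene of the endoplasmic reticulum, averaged 131 ± 12.2 CPM at 1:10000 and 44.4 ± 6.47 CPM at 1:40000, against 36.3 ± 4.86 CPM in unexposed cells. Its step between the dilutions was 1.57 ± 0.09 (adjusted p = 1.49e-12). BBC3, which encodes PUMA, was higher than in unexposed cells at 1:10000 (1.35 ± 0.16, adjusted p = 3.05e-08) and at 1:40000 (0.90 ± 0.15, adjusted p = 2.61e-05). ERO1A, an oxidase of protein folding, was higher at 1:10000 (0.44 ± 0.08, adjusted p = 2.43e-05) and at 1:40000 (0.22 ± 0.08, adjusted p = 0.0219). TNFRSF10A, a death receptor gene, was higher at 1:10000 (0.36 ± 0.12, adjusted p = 0.00797). BCL2, an anti-death gene, averaged 6.99 ± 0.97 CPM at 1:10000 and 8.83 ± 1.61 CPM at 1:40000, against 6.49 ± 0.83 CPM in unexposed cells. It was higher at 1:40000 than in unexposed cells (0.46 ± 0.14, adjusted p = 0.0092), not called at 1:10000 (0.10 ± 0.16, adjusted p = 0.577), and lower at 1:10000 than at 1:40000 (-0.36 ± 0.15, adjusted p = 0.0358). BCL2L11, which encodes BIM, was lower at 1:10000 than at 1:40000 (-0.25 ± 0.11, adjusted p = 0.0433). Against unexposed cells it stood near the threshold at 1:10000 (-0.24 ± 0.11, adjusted p = 0.0513), and with TMM factors from genes of unchanged version, or with only the compared groups in the fit, 7 genes of the list were called higher and 1 lower. Without the first 2 libraries of both rinse aid groups, 7 of the 11 were called higher and 0 lower between the dilutions.

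The ATF6 and IRE1 branches of the unfolded protein response run beside PERK, and the genes listed for them were mixed. The list includes the IRE1 sensor gene, while DNAJB9 is counted in the preceding list. Of 19 genes, 10 were called higher and 8 lower at 1:10000 (median log2 fold change 0.26) and 6 higher and 9 lower at 1:40000 (median -0.19), against unexposed cells. At 1:10000 over 1:40000, 11 were higher and 4 lower (median 0.29). ERN1, the gene of the IRE1 sensor, averaged 53.9 ± 6.10 CPM at 1:10000 and 23.9 ± 6.51 CPM at 1:40000, against 13.1 ± 2.52 CPM in unexposed cells (log2 2.08 ± 0.17, adjusted p = 2.48e-09, and 0.91 ± 0.17, adjusted p = 0.000229). XBP1, whose mRNA IRE1 splices, was higher at 1:10000 (1.11 ± 0.06, adjusted p = 7.32e-14) and, by less, at 1:40000 (0.21 ± 0.06, adjusted p = 0.00624). The chaperone gene HSPA5 averaged 1307 ± 164 CPM at 1:10000 and 701 ± 27.1 CPM at 1:40000, against 812 ± 28.98 CPM in unexposed cells, so it was higher at 1:10000 (0.69 ± 0.07, adjusted p = 1.24e-09) and lower at 1:40000 (-0.21 ± 0.07, adjusted p = 0.00911). CALR, a calcium-binding chaperone gene, was lower at both dilutions (-0.95 ± 0.05, adjusted p = 7.18e-14, and -0.59 ± 0.05, adjusted p = 1.29e-09). CRELD2, a secreted target of ATF6, was lower too (-1.35 ± 0.15, adjusted p = 1.49e-08, and -0.86 ± 0.14, adjusted p = 1.32e-05). DNAJC10, a disulfide reductase gene, was higher at 1:10000 (0.73 ± 0.06, adjusted p = 1.21e-10) and at 1:40000 (0.39 ± 0.06, adjusted p = 8.46e-06). PDIA4, a disulfide isomerase gene, was lower at 1:10000 than at 1:40000 (-0.39 ± 0.05, adjusted p = 4.25e-07).

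**Figure D4:**
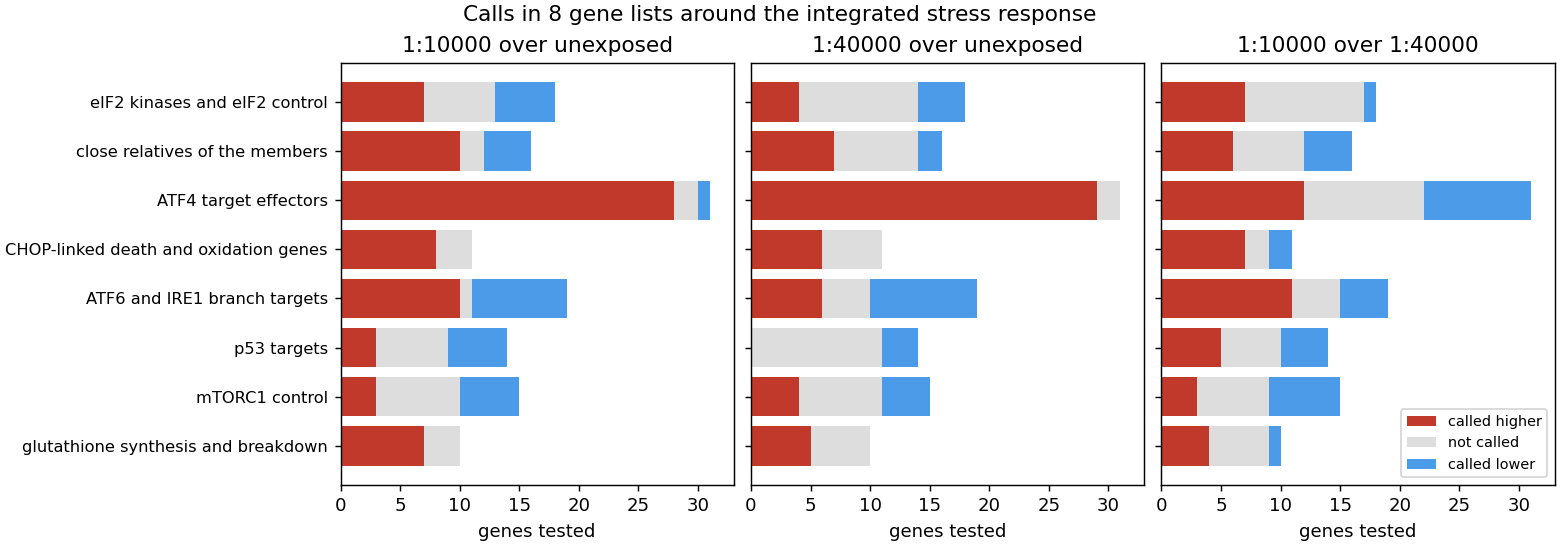
Number of tested genes called higher, not called or called lower (horizontal axis, genes, edgeR adjusted p under 0.05) in 8 lists around the response, for each of the 3 comparisons. The ATF4 effectors fill with higher calls against unexposed cells, 28 and 29 of 31, and split into 12 higher and 9 lower between the dilutions.

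Close relatives of the 10 genes did not move as 1 block. Of 16 tested, 10 were called higher and 4 lower at 1:10000 (median log2 fold change 0.27) and 7 higher and 2 lower at 1:40000 (median 0.19), against unexposed cells, and 6 higher and 4 lower between the dilutions (median 0.12). The lower counts against unexposed cells include ATF6B, which cannot be compared across the aligners, so at 1:40000 SESN1 is the only other lower call. CEBPG, a C/EBP partner of ATF4, averaged 198 ± 21.3 CPM at 1:10000 and 169 ± 15.6 CPM at 1:40000, against 93.2 ± 4.54 CPM in unexposed cells (log2 1.09 ± 0.08, adjusted p = 2.49e-12, and 0.85 ± 0.07, adjusted p = 5.71e-10). CEBPA, a C/EBP gene linked to differentiation, averaged 57.3 ± 11.3 CPM at 1:10000 and 185 ± 26.5 CPM at 1:40000, against 183 ± 10.9 CPM in unexposed cells. It was lower at 1:10000 than in unexposed cells (-1.67 ± 0.12, adjusted p = 2.73e-10) and not called at 1:40000 (0.02 ± 0.11, adjusted p = 0.912). Annotated genes on the opposite strand cover 43.4% of its exonic bases, so its counts are uncertain. SESN1, the p53-linked sestrin, was lower where SESN2 was higher, at 16.7 ± 1.97 CPM at 1:10000 and 36.4 ± 3.29 CPM at 1:40000, against 48.5 ± 3.93 CPM in unexposed cells (-1.55 ± 0.09, adjusted p = 1.66e-13, and -0.43 ± 0.08, adjusted p = 0.000133). SESN3, another sestrin, was lower at 1:10000 (-0.43 ± 0.15, adjusted p = 0.0186) and higher at 1:40000 (0.61 ± 0.15, adjusted p = 0.00195). ATF6 was higher than in unexposed cells at 1:10000 (0.83 ± 0.07, adjusted p = 6.38e-11) and at 1:40000 (0.40 ± 0.07, adjusted p = 2.78e-05). CREB3 (0.78 ± 0.08, adjusted p = 3.57e-09) and TRIB1 (0.55 ± 0.10, adjusted p = 4.79e-05) were higher at 1:10000 than at 1:40000.

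ATF6B could not be read across the aligners. It had 0 counts in all 10 rinse aid libraries and 84 to 346 counts in each unexposed library, at least 267-fold lower at 1:10000 and at least 1728-fold lower at 1:40000, computed against 3 counts over each group. These bounds cover counting error only, and aligner, annotation and exposure cannot be told apart for this gene.

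The genes whose profiles lay nearest to 3 of the regulators were found by the root mean square difference of centred log2 CPM over the 15 libraries, a description that shares libraries, depth and group structure. Nearest to ATF3 were DUSP5 (0.215), ANKRD1 (0.238) and SAT1 (0.307). DUSP5 averaged 182 ± 47.4 CPM at 1:10000 and 27.3 ± 2.69 CPM at 1:40000, against 12.7 ± 3.03 CPM in unexposed cells. Nearest to DDIT3 were TRIB3 (0.237), UNC5B (0.277) and the mitochondrial ribosomal RNA gene MT-RNR1 (0.302). UNC5B averaged 148 ± 14.9 CPM at 1:10000 and 103 ± 26.9 CPM at 1:40000, against 21.6 ± 3.99 CPM in unexposed cells. Nearest to CHAC1 were PXK (0.273), SLC4A7 (0.283) and CEBPB (0.286). PXK averaged 19.7 ± 1.87 CPM at 1:10000 and 18.3 ± 3.85 CPM at 1:40000, against 6.33 ± 1.29 CPM in unexposed cells.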

How the data were processed

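PolyA RNA-seq of Caco-2 monolayers was deposited by the authors as 1 table of raw gene counts for each library. Tools in the submitters' processing notes, with no order, are featureCounts, DESeq2 1.32.0, cutadapt and STAR 2.7.9a, with GRCh38 as build; per the file headers, the aligner was HISAT2 for rinse aid files and RNA STAR for unexposed files. Strand setting and annotation release are not given in the sources used here. Files listed 61544 (rinse aid) and 60649 (unexposed) genes; the 60557 shared by identifier without version, holding at least 99.9733% of each library's counts, were kept. GENCODE 29 (GRCh38) gave coordinates and exon lengths.

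One fit in R 4.3.3 with edgeR 4.0.16 (TMM scaling, filterByExpr by group, 3 group means, robust quasi-likelihood test) covered all 15 libraries and 13157 genes, with Benjamini-Hochberg adjustment over all of them in each comparison. Called means an adjusted p under 0.05. SE is the absolute log2 fold change over the square root of F. The code was tested on simulated data. Because edgeR bounds some p-values from below, a p can be larger than its SE implies.

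The genes, lists and tests were chosen with earlier results of these data known. From each list, in each comparison, the text names genes among the 2 called highest and the 2 called lowest in log2 fold change, while the kinase and eIF2B genes, HSPA5, MCL1, the markers and values of named genes in their other comparisons were added after they were seen; likeness used genes of at least 5 CPM and a prior count of 2. Alternatives were other scalings, no filter, DESeq2 1.42.0, a replicate block, only the compared groups, and left-out libraries. Equal replicate numbers are not stated to share a culture.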

Additional observations from a re-analysis of the deposited data

Results flagged for a closer look

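In 30 groups of 5 libraries (10 genes in 3 groups), 1 held a library far from the others by Dixon's test, where chance flags about 1 in 20. ATF3 in unexposed replicate 5 was at 8.27 CPM, while the other 4 unexposed libraries lay between 5.79 and 5.99 CPM, so the gap was 0.92 of the group's range against a critical value of 0.71. Without that library and without each other library in turn, the log2 fold change of ATF3 over unexposed cells ran from 3.97 to 4.14 at 1:10000 and from 1.36 to 1.57 at 1:40000.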

How the results depend on the processing

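Over 25 alternatives, 735 of 750 log2 fold changes of the 10 genes kept their direction and side of the threshold, 7 lost a call, 5 gained one and 3 changed sign. Sign changes were ATF5 at 1:10000 over unexposed cells without unexposed replicate 1 (-0.02, in a range up to 0.09 over left-out libraries), and SESN2 between the dilutions with no filter on low counts (-0.01) and with only the first 2 libraries of both rinse aid groups (-0.01), none of them called. The 2 fits that leave out or keep only those libraries were chosen after seeing the data. With only those libraries, 1 of the 10 genes was called lower at 1:40000 than in unexposed cells, ATF5 (-0.35, adjusted p = 0.015). Between the dilutions, DDIT4 was not called with no filter (0.26), without the first 2 libraries (0.28) or with only those (0.39), and ATF5 was called with only those (0.42). The cause was not tested. With no filter, the median of all genes moved to 0.162 at 1:40000 over unexposed cells and -0.207 between the dilutions.

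Leaving out each library in turn, 9 genes were called higher over unexposed cells at either dilution and 5 to 7 between the dilutions, with 0 lower. Over all genes 9053 to 9555, 6254 to 6971 and 7075 to 7624 were called.

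With the replicate number as a block, 9, 9 and 7 of the 10 genes were called higher and 9592, 7314 and 8012 of all genes were called at 1:10000 over unexposed, 1:40000 over unexposed and 1:10000 over 1:40000. The added call was ATF5 between the dilutions (0.21, adjusted p = 0.0288). Same-numbered libraries correlated at 0.045 to 0.281 between the dilutions, and at -0.05 to 0.058 (1:10000) and 0.06 to 0.135 (1:40000) with unexposed ones, and 5, 2 and 6 of 10 libraries correlated best with their own number, so the number was not taken as a pairing.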

Other observations

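Lists at the edge of the response are described by their counts of calls. Over all genes tested, 34.8% were called higher and 36.2% lower at 1:10000, and 26.1% and 26.0% at 1:40000, against unexposed cells. Between the dilutions the shares were 28.3% and 29.0%. Of 15 tested genes of mTORC1 control, the growth pathway that SESN2 and DDIT4 restrain, 3 were called higher and 5 lower at 1:10000, and 4 higher and 4 lower at 1:40000, against unexposed cells (edgeR, adjusted p under 0.05; median log2 fold changes -0.10 and -0.01). Between the dilutions 3 were higher and 6 lower (median 0.01), or 1 and 5 without the first 2 libraries of both rinse aid groups. EIF4EBP1, a translation repressor gene that ATF4 is known to activate, averaged 111 ± 8.51 CPM at 1:10000 and 106 ± 6.27 CPM at 1:40000, against 48.4 ± 3.33 CPM in unexposed cells (log2 1.20 ± 0.07 and 1.13 ± 0.07). Its relative EIF4EBP2 averaged 493 ± 20.8 CPM at 1:10000 and 998 ± 28.5 CPM at 1:40000, against 1055 ± 65.0 CPM in unexposed cells. DEPTOR, an inhibitor inside the mTOR complexes, averaged 4.13 ± 1.00 CPM at 1:10000 and 17.3 ± 4.44 CPM at 1:40000, against 25.3 ± 4.42 CPM in unexposed cells.

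A list around glutathione, which CHAC1 cleaves, is wider than synthesis and breakdown and includes GPX1, GPX4, GSR and TXNRD1. Of its 10 tested genes, 7 were called higher and 0 lower at 1:10000, and 5 higher and 0 lower at 1:40000 against unexposed cells (medians 0.32 and 0.21). Between the dilutions 4 were higher and 1 lower (median 0.17). TXNRD1, a thioredoxin reductase gene, averaged 373 ± 76.1 CPM at 1:10000 and 202 ± 7.11 CPM at 1:40000, against 181 ± 6.60 CPM in unexposed cells. GCLM, a subunit of the enzyme that starts glutathione synthesis, was higher at both (log2 0.80 ± 0.13 and 0.46 ± 0.13). Of 14 tested p53 targets, 3 were called higher and 5 lower at 1:10000, and 0 higher and 3 lower at 1:40000 against unexposed cells (medians -0.07 and -0.13), and between the dilutions 5 were higher and 4 lower (median -0.01). PLK2, a kinase gene, averaged 21.6 ± 1.54 CPM at 1:10000 and 4.94 ± 1.08 CPM at 1:40000, against 6.14 ± 1.78 CPM in unexposed cells.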
